A study of Mus musculus with 2 samples.

Results

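The genes of the cytosolic ribosomal proteins were compared between estradiol-treated and untreated G1E cells. Members were all probe sets whose only gene symbol is that of a large-subunit (Rpl) or small-subunit (Rps) protein, of the stalk proteins Rplp0, Rplp1 and Rplp2, or of Rpsa, with symbols of pseudogenes left out. The rule found 105 probe sets of 49 genes, 23 of the 40S and 26 of the 60S subunit, among 45101 probe sets and 18193 genes with a probe set of their own. G1E is a mouse erythroid progenitor line without GATA-1, and both cultures carried ER-GATA-1(V205G), GATA-1 with a change that weakens its contact with the cofactor FOG-1, joined to the hormone-binding domain of the estrogen receptor. The tested culture had received 1 µM estradiol for 24 h, which activates the fusion protein. The other was harvested before treatment. Each culture gave 1 array of total RNA, so the differences below have no replicate check and no p-value. Effects of the mutant, of estradiol and of 24 h in culture cannot be told apart, as there was no array of cells without the fusion and no untreated array at 24 h.

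Ribosomal proteins are the protein part of the small subunit, which decodes mRNA, and of the large subunit, which forms peptide bonds. They are needed in near-equal amounts, and their mRNAs begin with a tract of pyrimidines, the TOP motif, through which their translation is controlled together. The red cell lineage is sensitive to their dose: in humans, loss of 1 copy of several ribosomal protein genes causes Diamond-Blackfan anaemia, a failure of erythroid progenitors, and mutations of GATA1 cause a related disease.

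None of the 45 ribosomal protein genes with enough signal on both arrays differed by as much as 1.5-fold between the cultures. Values are linear signals, and a gene is given by its brightest own probe set. A signal of 95.2, the median over both arrays, was taken as the floor, and a gene at or above it on both arrays was called measured. Of the 49 genes, those below the floor have no ratio, and 45 were measured. Of these, 0 were at least 2-fold higher with estradiol, where 2.04% of all 10240 measured genes were, and 0 at least 2-fold lower, against 1.10%. At 1.5-fold the counts were 0 higher and 0 lower, against 7.11% and 4.85% of all measured genes. All measured genes were far dimmer, with a median signal of 810 with estradiol against 13138. Of 683 other genes with a mean signal of at least 5000, 13 were at least 1.5-fold higher and 3 lower, and 37 members reached that signal. The median log2 ratio of estradiol over untreated was -0.02 for the 45 genes (0.02 after loess) and 0.00 for all genes, and the range was -0.17 to 0.42. Within 0.1 of 0 lay 42 of the 45 genes, against 26.2% of all genes and 45.5% of the 683 other genes with a mean signal of at least 5000. Taken as the median over probe sets, 39 members did. With both arrays set to a common median, which moved the median of all genes to -0.11, 5 lay within 0.1 of 0 and 42 within 0.1 of the median of all genes.

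The small excess of ratios below 0 depended on the scaling. With estradiol 11 of the 45 genes lay above 0 and 34 below, where all genes were split into 50.1% and 49.9%. After loess 35 lay above and 10 below, and after quantile normalization 22 and 19. The error available is the spread between probe sets of 1 gene, a pooled SD of 0.14 on the log2 scale over 71 probe sets of 20 ribosomal protein genes (0.25 over all genes). Over the 50 of them with a mean signal of at least 5000, in 17 genes, it was 0.04. This error covers probes and transcript forms, not cultures. All ratios are relative to the rest of the RNA on each array, so a change in ribosomal protein mRNA per cell that the other mRNAs shared would not be seen, and fewer cells of a type cannot be told apart from less RNA per cell.

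**Figure D1:**
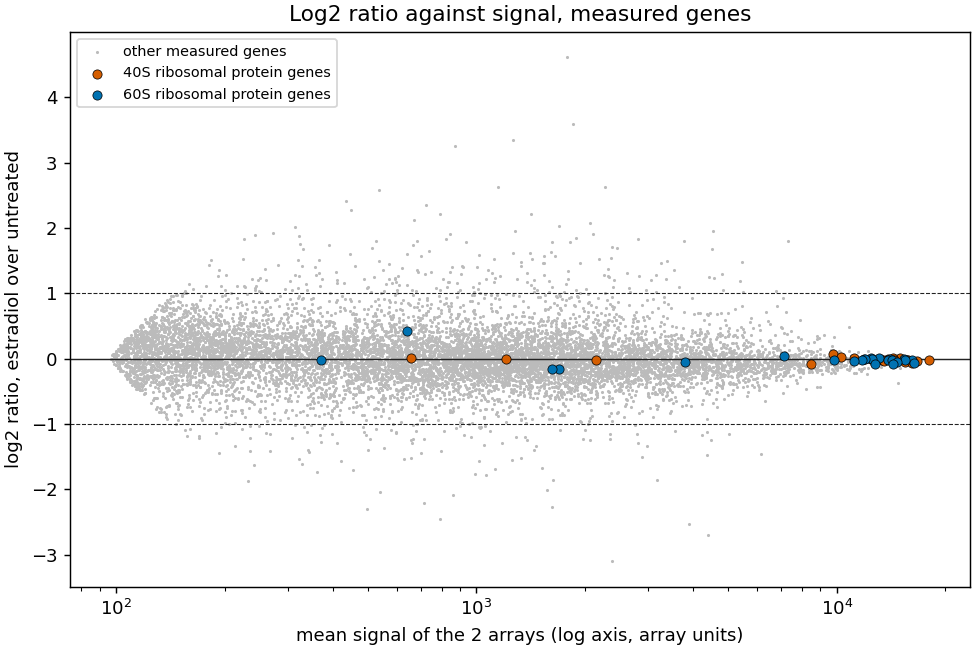
Log2 ratio of estradiol over untreated (vertical axis) against the mean signal of the 2 arrays (horizontal log axis) for the measured genes. Grey points are other genes, orange points 40S and blue points 60S ribosomal protein genes, and dashed lines mark 2-fold: the ribosomal protein genes lie along 0 from -0.17 to 0.42, most of them at the far right of the signal range.

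The 2 arrays and the cells were checked first. Signals reached 17885 with estradiol and 18099 untreated. All 7 erythroid progenitor markers with a probe set of their own reached the floor on each array (summed signal 40854 with estradiol and 37674 untreated). They went opposite ways, with 3 log2 ratios above 0 and 4 below, from -0.56 (Tal1) to 1.19 (Zfpm1). Zfpm1, the FOG-1 gene, read 7485 with estradiol and 3271 untreated. The Gata1 probe set read 1191 and 1264, and the sources used here do not say whether its probes match the fusion. Of 8 mast cell markers 6 reached the floor on each array, with summed signals of 6268 with estradiol and 13449 untreated. Its members went opposite ways: Tpsab1, a mast cell tryptase, read 3418 with estradiol and 140 untreated and Hdc 152 and 3.80, while Cpa3, a carboxypeptidase, read 1146 with estradiol and 6616 untreated, Gzmb 495 and 4260 and Ms4a2 791 and 2093. Of the 5 neutrophil and monocyte markers 2 reached the floor with estradiol and 1 untreated, of the 4 megakaryocyte markers 2 on each array, and of the 3 lymphoid markers 0. The summed signal of all 105 ribosomal protein probe sets was 3.07% of the array's signal with estradiol and 3.08% untreated. Any part of a change in cell make-up in the results was not tested.

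Most ribosomal protein probe sets lay at the top of the signal range. All of the 10 brightest probe sets of the array read ribosomal proteins, 5 of them members and 5 shared between a ribosomal protein and its pseudogenes. Among the 100 brightest, 37 were members and 35 were shared. Among the members the brightest was Rps18, a protein of the small subunit's head, with a signal of 17885 with estradiol and 18099 untreated. Next came Rps3a1, with 16565 and 16908, and Rpl35, a protein beside the exit tunnel of the large subunit, with 15969 and 16780. For Rpl13a the signals were 16103 with estradiol and 16312 untreated, and for Rps7 they were 15845 and 16520. All 5 read slightly lower with estradiol, with log2 ratios of -0.07 to -0.02, but after loess Rps18, Rps3a1 and Rpl13a lay above 0 (0.02, 0.01 and 0.02). Probes differ in how strongly they bind, so the order of signals is not an order of transcript levels.

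**Figure D2:**
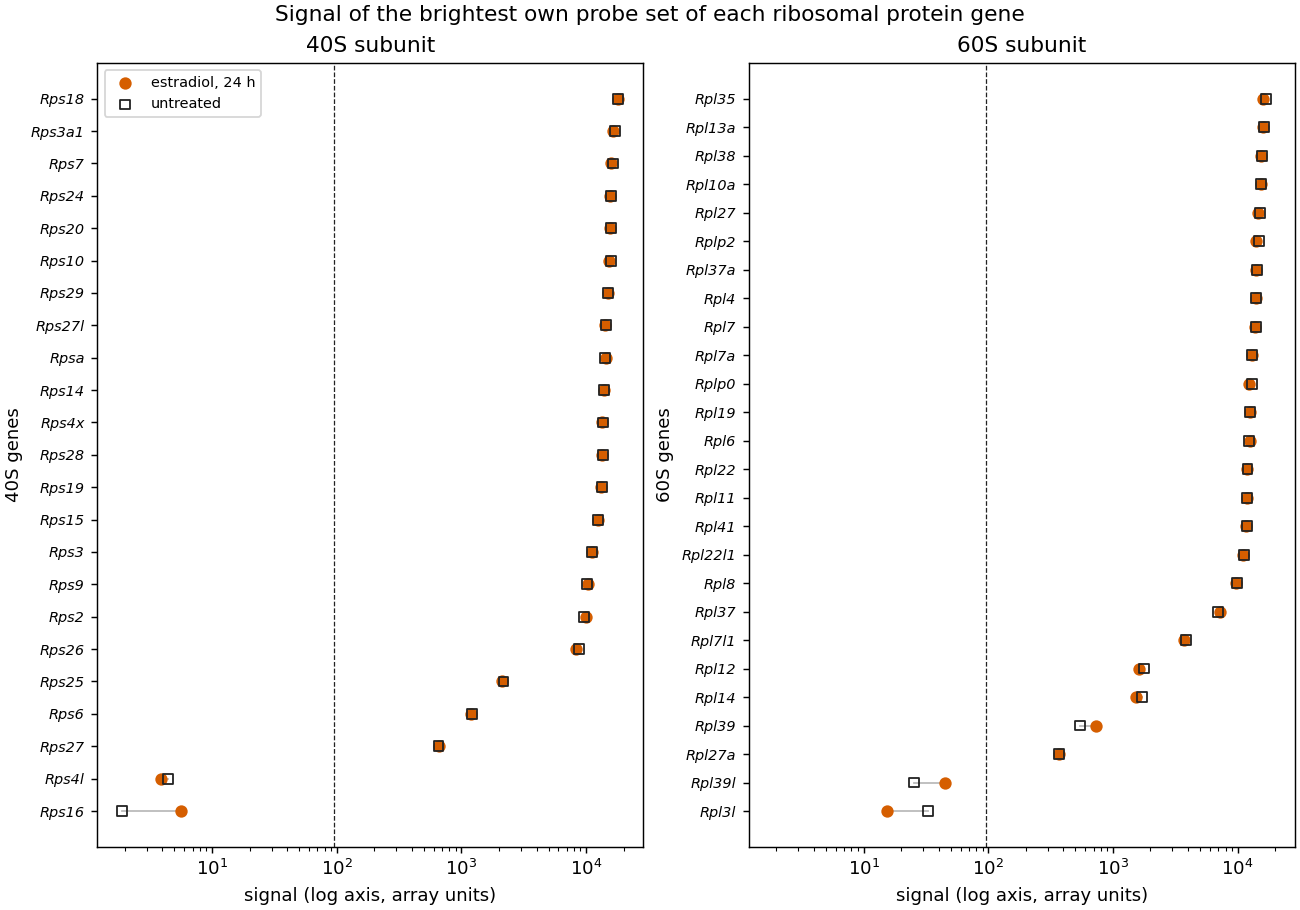
Signal (horizontal log axis) of each ribosomal protein gene on the estradiol array (filled orange circles) and the untreated array (open squares), for the 40S genes on the left and the 60S genes on the right. The dashed line is the floor of 95.2, the 2 markers of a gene overlap for nearly all genes above it, and Rps4l, Rps16, Rpl39l and Rpl3l lie below it.

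In the 40S subunit all 21 measured genes lay within 0.1 of 0, but 3 did with a common median and 19 with the median over probe sets. Without probe sets of the suffix _x_at, which left fewer genes measured, 16 did. The median log2 ratio was -0.02 (0.02 after loess), with an SD across genes of 0.03 and a range from -0.09 to 0.07. Rps2, which lies at the mRNA entry channel, had 10003 with estradiol and 9542 untreated, the highest ratio of the subunit (log2 ratio 0.07). Its direction turned on a brighter shared probe set, with 13254 and 13475 (-0.02), and with a common median (-0.04). Rps26, which lies at the mRNA exit, had 8252 and 8755, the lowest (-0.09). Rps3, also of the entry channel, read 11248 with estradiol and 11142 untreated, and Rps9 10345 and 10214, both with ratios of 0.01 to 0.02. Rpsa, also known as the laminin receptor, read 14302 with estradiol and 14258 untreated. Rps29 read 15043 and 14978, and Rps27 658 and 655. A brighter shared probe set of Rps27 read 10698 with estradiol and 10921 untreated (-0.03). Rps6, the substrate of S6 kinase, read 1202 with estradiol and 1206 untreated on its own probe set. Rps14 read 13834 and 13836. Against the SD of 0.04 between bright probe sets of 1 gene, Rps26 lay just outside 2 SD (0.08) and Rps2 between 1 and 2 SD. These places depended on the scaling: after loess Rps26 had -0.04 and Rps2 0.11. Both were named as extremes of the subunit.

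In the 60S subunit 21 of 24 measured genes lay within 0.1 of 0, and 3 did not (2 lay within it with a common median). The median log2 ratio was -0.02 (0.02 after loess) and the SD across genes 0.11. Rpl39, a very small protein of the exit tunnel, had the highest ratio of all members, with 733 with estradiol and 546 untreated (log2 ratio 0.42). Rpl14 had the lowest, with 1526 and 1713 (-0.17), followed by Rpl12, a protein at the base of the stalk, with 1605 and 1784 (-0.15). These 3 were dim on their own probe sets, and on brighter probe sets shared with other symbols their ratios were -0.03 for Rpl39, which turns its direction, and -0.02 for Rpl14 and Rpl12. Rpl37 read 7223 with estradiol and 7007 untreated (0.04), but 14996 and 15554 on a brighter shared probe set (-0.05). Rpl6 and Rpl7a had ratios of 0.01 each, with 12464 and 13138 with estradiol and 12358 and 13036 untreated. Of the named genes of both subunits 0 lay above 0 in every setting. A common median moved the median of all genes to -0.11, so except for Rpl39 that setting fixed this outcome. Rpl27 read 14465 with estradiol and 14998 untreated (-0.05). Median ratios of the 2 subunits differed by less than 0.1.

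The P stalk of the large subunit, which recruits elongation factors, read slightly lower with estradiol. Most members did so too, but after loess most lay above 0. Rplp0 and Rplp2 did so under each alternative (-0.20 to -0.04), which also held for Rps26, Rpl35, Rps7, Rps10, Rpl12 and Rpl14 among the 31 measured genes named by the rule. These 8 genes are also the 8 lowest of all members by ratio, so staying below 0 is not separate support. Rplp0, Rplp2 and Rps26 have 1 own probe set each, so the choice among own probe sets could not change their ratios. Rplp0, the anchor of the stalk, had 12353 with estradiol and 13120 untreated (log2 ratio -0.09). Rplp2 had 13913 and 14745 (-0.08). Rplp1 was read only by a probe set shared with another symbol, with 11893 and 12262 (-0.04). These ratios lie inside the SD of 0.14 between probe sets of 1 gene, and those of Rplp0 and Rplp2 slightly outside 2 SD (0.08) of probe sets with a signal of at least 5000. After loess Rplp0 and Rplp2 each had -0.04, which lies inside those 2 SD.

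The genes linked to Diamond-Blackfan anaemia in humans had similar ratios. Of 21 listed genes 12 had a probe set of their own, and all 12 were measured. All 12 lay within 0.1 of 0, with a median log2 ratio of -0.02, whereas 0 did with a common median. Without probe sets of the suffix _x_at, where Rps29 had none left, 9 did. Rps19, the most often mutated, read 13246 with estradiol and 13390 untreated (log2 ratio -0.02). Rps24 read 15642 and 15924 (-0.03), and Rps10 15169 and 15784 (-0.06). Rpl11 binds the p53 regulator Mdm2 together with Rpl5 when ribosome assembly fails. It read 11884 with estradiol and 11962 untreated (-0.01). Rps7, which can also bind Mdm2, had a log2 ratio of -0.06. Rpl5 was read only by probe sets shared with a pseudogene, the brightest of which had 11932 and 12267 (-0.04).

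Paralogs of ribosomal proteins were either well above the floor or below it, on both arrays alike. Rps27l, a close relative of Rps27 and in humans a p53 target, read 14301 with estradiol and 14481 untreated (log2 ratio -0.02), and its 3 probe sets ranged from -0.07 to -0.01. Rpl22l1, the relative of Rpl22, read 11053 and 11296 (-0.03), and Rpl22 itself 11891 and 12004 (-0.01). Rpl7l1, which acts in assembly of the large subunit, read 3735 with estradiol and 3859 untreated (-0.05), with 0.05 and 0.18 on its dimmer probe sets. In contrast, Rpl3l, the muscle form of Rpl3, read 15.4 with estradiol and 32.8 untreated. Rpl39l, the testis form of Rpl39, read 44.8 and 25.3, and Rps4l 3.90 and 4.40. These 3 lay below the floor on both arrays, so no ratio was formed. Probes of close copies can read both, so the bright signals of Rps27l and Rpl22l1 may include transcripts of Rps27 and Rpl22.

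The start sites of some members carry the pyrimidine tract, and their signals are shown beside it. RefSeq promoter windows (GRCm38.p6, from 250 bases before to 50 bases after an annotated start) were given for 43 of the 49 genes, 51 windows in all. A C at the annotated start followed by at least 4 pyrimidines stood in 8 of 51 windows (15.7%), against 2.51% of all 32851 windows. Within 5 bases of the start on either side it stood in 21 of 51 (41.2%), against 18.3% of all windows. Annotated starts may be off by a few bases, so these counts describe the annotation. The 8 windows are printed from 30 bases before the start to 20 bases into the transcript, with the pyrimidine run from the start in capitals:
Rps18, chr17:33955646-33955695, minus strand: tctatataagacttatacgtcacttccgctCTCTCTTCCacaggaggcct
Rpl35, chr2:39005112-39005161, minus strand: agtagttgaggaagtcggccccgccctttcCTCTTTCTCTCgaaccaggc
Rps10, chr17:27635225-27635274, minus strand: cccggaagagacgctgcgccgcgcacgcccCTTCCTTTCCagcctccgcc
Rpl38, chr11:114668550-114668599, plus strand: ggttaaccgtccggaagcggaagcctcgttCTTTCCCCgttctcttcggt
Rplp2, chr7:141447621-141447670, plus strand: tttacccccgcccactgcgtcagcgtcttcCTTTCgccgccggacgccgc
Rps6, chr4:86857348-86857397, minus strand: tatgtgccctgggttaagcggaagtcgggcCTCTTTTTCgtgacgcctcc
Rps27, chr3:90213629-90213678, minus strand: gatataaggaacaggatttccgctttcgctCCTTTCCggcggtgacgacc
Rpl14, chr9:120571487-120571536, plus strand: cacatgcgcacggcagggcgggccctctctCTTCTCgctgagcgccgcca

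The capitals run from 5 bases in Rplp2 to 11 in Rpl35. These 8 genes had log2 ratios from -0.17 (Rpl14) to 0.01 (Rps27), with a median of -0.04, and the other 32 measured genes with a window had a median of -0.02. The windows of 4 paralogs are shown in the same frame. Within 5 bases of the annotated start, Rpl22l1 and Rps27l do have a C followed by at least 4 pyrimidines, and Rpl3l and Rpl39l do not. At the annotated start itself none has one, neither Rpl22l1 and Rps27l, which were bright, nor Rpl3l and Rpl39l, which were below the floor:
Rpl22l1, chr3:28805478-28805527, plus strand: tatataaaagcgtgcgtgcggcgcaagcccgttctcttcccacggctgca
Rps27l, chr9:66946056-66946105, plus strand: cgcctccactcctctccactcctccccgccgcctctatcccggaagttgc
Rpl3l, chr17:24727796-24727845, plus strand: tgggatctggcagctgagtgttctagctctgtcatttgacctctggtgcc
Rpl39l, chr16:10170198-10170247, plus strand: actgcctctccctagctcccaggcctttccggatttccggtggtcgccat

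Other motifs were counted on both strands of the same windows. The ETS site CTTCCG was in 31 of 51 member windows (60.8%), against 16.9% of all windows, among them those of Rps18 and Rpl38 printed above. The GC box GGGCGG was in 52.9% against 35.7%, and the YY1 site AANATGGC in 15.7% against 6.05%. Sites of the GATA type (GATA with A or T before it and A or G after it) were in 11 of 51 windows (21.6%), against 29.8% of all windows. The E-box CACGTG was in 9.80% against 7.15%, and the TATA box TATAAA in 11.8% against 13.6%. Among the 9 measured genes with such a GATA match, log2 ratios ran from -0.09 (Rps26) to 0.04 (Rpl37). A match of letters is not evidence of binding.

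Where a gene had several probe sets, those with a mean signal of 10000 or more lay between -0.12 and 0.05, and the dimmer ones scattered more widely. In 20 genes at least 2 probe sets were measured. The widest range was that of Rpl35, whose 5 bright probe sets had log2 ratios from -0.12 to -0.03, while the dimmest had 0.62, with signals of 235 with estradiol and 153 untreated. This was the 1 measured probe set of 96 past 1.5-fold, against 7.59% of all measured probe sets at least 1.5-fold higher and 4.60% lower. Rps3 had a log2 ratio of 0.01 on its brightest probe set and 0.55 on its dimmest, which read 445 with estradiol and 305 untreated. On its middle one it had 0.23, with 2128 and 1815. Rps10 went the other way, with -0.43 on a probe set that read 151 with estradiol and 202 untreated. Rps24 had 0.27 on its dimmest probe set and -0.16 on the next. Rps9 had 0.42 on a probe set of medium signal, with 3756 with estradiol and 2798 untreated. Rpl41, the smallest ribosomal protein, had -0.21 and -0.18 on its 2 dim probe sets. The dim probe sets thus moved in both directions.

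**Figure D3:**
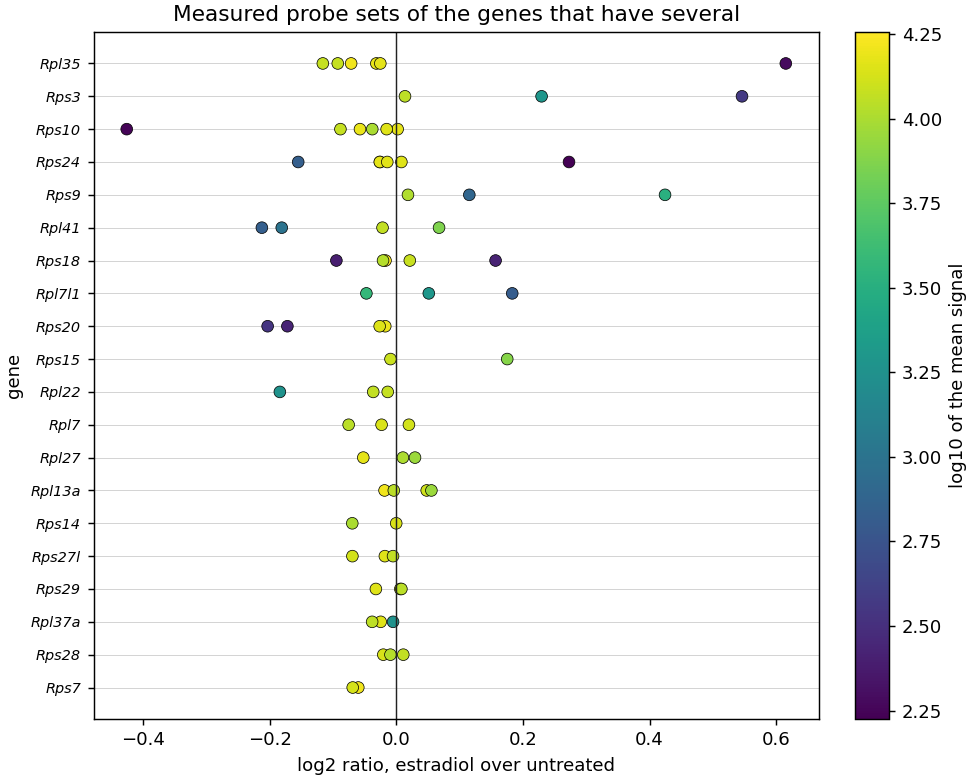
Log2 ratio of estradiol over untreated for each measured probe set of the 20 ribosomal protein genes with several, 1 row per gene, coloured by the log10 of the mean signal (yellow bright, purple dim). Probe sets with a mean signal of 10000 or more lie between -0.12 and 0.05, and the widest departures, such as 0.62 in Rpl35 and -0.43 in Rps10, are of dim ones.

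Spread narrowed with signal, both in ribosomal protein probe sets and in others. With a mean signal of 10000 or more, the log2 ratios of 60 member probe sets had an SD of 0.03, and those of 154 probe sets of other genes an SD of 0.09. None of either set passed 1.5-fold at that level. Between 5000 and 10000 the SDs were 0.08 over 10 member probe sets and 0.24 over 1023 others, of which 25 passed 1.5-fold. Between 1000 and 5000 they were 0.19 over 11 and 0.42 over 6031, and below 1000 they were 0.30 over 15 and 0.42 over 13645. The members' spread was the smaller in each of the 4 ranges, a difference that was not tested. How far a limited response of the array at high signal contributes to the level ratios was not tested. Among genes with a signal of at least 5000, the 37 members ranged from -0.09 to 0.07, and 683 other genes from -1.46 to 1.80. A range widens with the number of genes, and the others were dimmer, with a median of 6832 with estradiol against 13745.

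**Figure D4:**
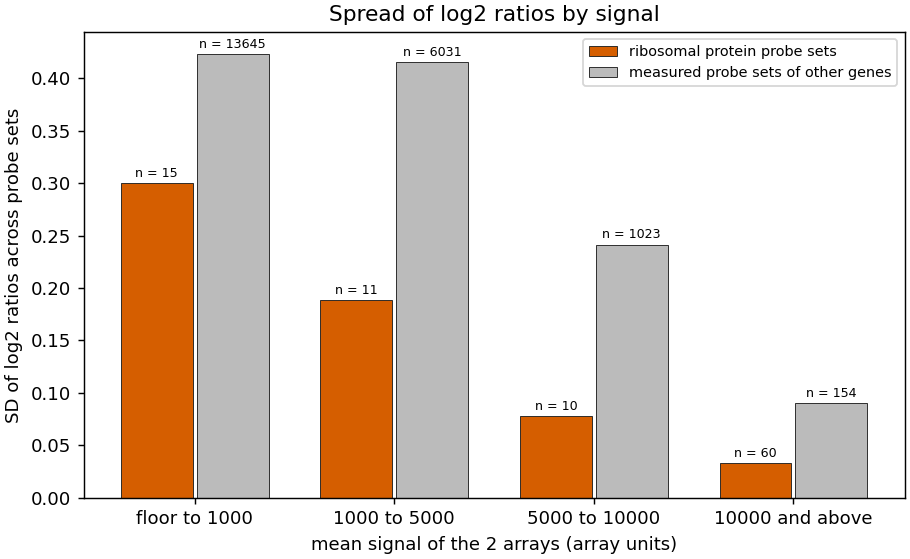
SD of log2 ratios across measured probe sets (vertical axis) in 4 ranges of mean signal, for ribosomal protein probe sets (orange) and probe sets of other genes (grey), with the number of probe sets above each bar. Both fall with signal, to 0.03 and 0.09 in the range of 10000 and above, and the orange bar is the lower in each range.

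Members that were dim on their own probe set were bright on probe sets shared with pseudogenes. Of 12 members with a mean signal under 5000, 8 also had a shared probe set, and all 8 read at least 5000 there. For Rpl39 the shared probe set read 12264 with estradiol and 12539 untreated (log2 ratio -0.03), against the ratio of 0.42 on its own. For Rpl14 the brightest shared one read 14783 and 14966 (-0.02), and for Rpl12 16214 and 16404 (-0.02). Rps16 read 5.60 with estradiol and 1.90 untreated on its own probe set, which is below the floor, but 14872 and 15063 on a shared one (-0.02). Shared probe sets can also read pseudogene transcripts. Of the 8 genes Rps25 had the highest ratio on its brightest shared probe set, with 8388 with estradiol and 7469 untreated (0.17), and the other 7 lay between -0.04 and -0.01.

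A further 29 ribosomal protein symbols had only shared probe sets and are outside the rule. Taken as 27 genes or gene pairs, by their brightest probe set, they had log2 ratios from -0.11 to 0.05 with a median of -0.02. Of the 27, 23 were below 0, against 49.9% of all measured genes. Among members this split turned with the scaling, and for these 27 other scalings were not tested. The lowest was the pair Rpl36a and Rpl36al, with 10962 with estradiol and 11817 untreated, on a probe set that also carries Dnaaf2. On a dimmer probe set without Dnaaf2 the pair read 7449 and 7455 (-0.001). The highest was Rps21, with 15155 and 14605, but its other shared probe sets had ratios from -0.05 to 0.09. Fau, which encodes a small-subunit protein as a fusion with a ubiquitin-like protein, had a probe set of its own and read 9028 with estradiol and 9871 untreated (-0.13).

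Genes that serve the ribosome in other ways had medians between -0.09 and 0.07. Of 17 other TOP mRNA genes, 0 passed 1.5-fold and the median log2 ratio was -0.02, with a range from -0.24 to 0.05. Their SD was 0.09, against 0.08 for the cytosolic ribosomal proteins and 0.03 for the 37 of these with a mean signal of at least 5000. All 17 TOP genes reached that signal, and 11 of them lay within 0.1 of 0, as did all 37 members. The 2 brightest TOP genes were Npm1 and Naca. Npm1, a nucleolar chaperone, read 14424 with estradiol and 14378 untreated. Naca, a subunit of the nascent chain complex, read 12955 and 13149. Eif3e, an initiation factor subunit, was the lowest, with 11080 and 13108 (-0.24). Of 8 chaperones of ribosomal proteins 0 passed 1.5-fold, and the median was 0.07. Tsr2, which escorts Rps26, had the highest ratio, with 1714 with estradiol and 1305 untreated (0.39). Grwd1, which escorts Rpl3, had the lowest (-0.25). Of 26 ribosome biogenesis genes 1 was at least 1.5-fold higher and 0 lower, against 7.11% and 4.85% of all measured genes. The median of the 26 was -0.09. The 1 gene was Rrn3, an initiation factor of RNA polymerase I. On its 1 measured probe set it read 2942 with estradiol and 1885 untreated (0.64).

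The mitochondrial ribosomal proteins, which form the separate ribosome of the organelle, had 76 measured genes. Of them 0 passed 1.5-fold, the median log2 ratio was -0.05, the SD 0.18 and the range -0.50 (Mrpl42) to 0.46 (Mrpl55). Of 44 measured translation initiation genes 1 was at least 1.5-fold higher and 2 lower, against 7.11% and 4.85% of all measured genes. The median of the 44 was -0.03. The 3 past 1.5-fold encode kinases that act on eIF2. Eif2ak1, the heme-regulated kinase, read 1630 with estradiol and 934 untreated (0.80). Eif2ak2 read 271 and 408 (-0.59) and Eif2ak4 182 and 286 (-0.65). Both are dim, and below a signal of 1000, 14.0% of probe sets of other genes passed 1.5-fold. Eif2ak3, also such a kinase, read 557 with estradiol and 485 untreated (0.20). The signals of both lists were lower than those of the cytosolic ribosomal proteins, with medians of 2681 and 5552 with estradiol against 13138. Their wider spread therefore goes with lower signal, and its cause was not tested.

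**Figure D5:**
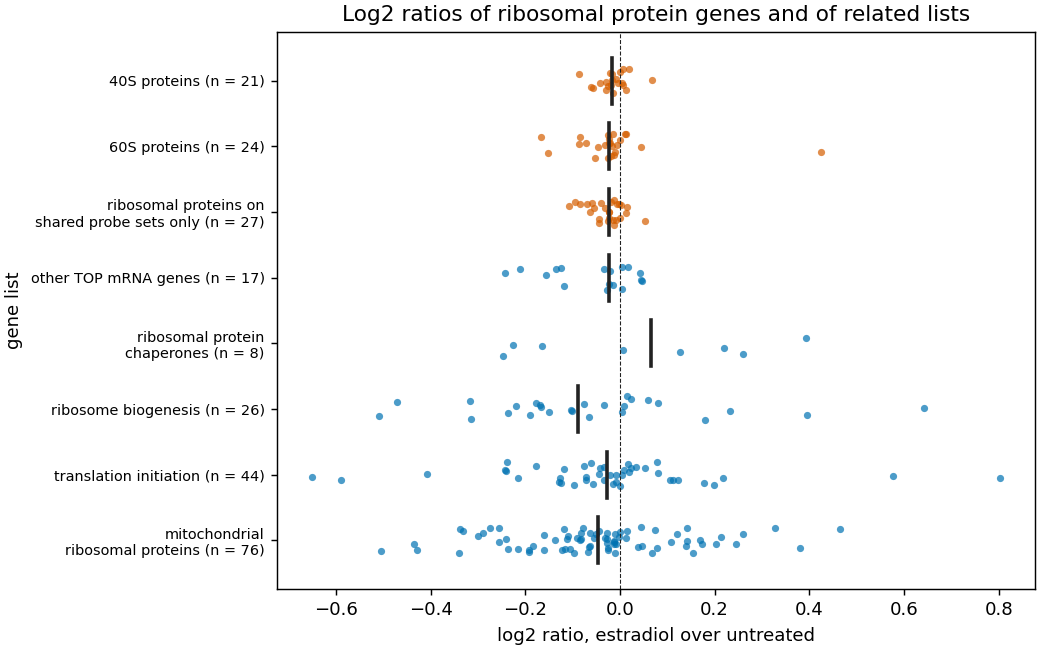
Log2 ratio of estradiol over untreated (horizontal axis) for each measured gene of the lists, with the median as a black bar. Orange points are cytosolic ribosomal proteins and blue points related lists: the medians lie between -0.09 and 0.07, those of the 40S and 60S genes at -0.02 (0.02 after loess), and the orange points, apart from Rpl39 at 0.42, lie between -0.17 and 0.07.

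The ribosomal RNA control probe sets differed more than the proteins' bright probe sets. The 3 for 18S ribosomal RNA read 6580, 9935 and 9251 with estradiol and 7546, 11623 and 11075 untreated, for the 3' end, the 5' end and the middle. All 3 were lower with estradiol, by log2 ratios of -0.20, -0.23 and -0.26. Labelling of RNA without a poly(A) tail depends on priming, so these probe sets do not measure the amount of 18S RNA directly.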

How the data were processed

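Total RNA of 1 untreated and 1 estradiol-treated culture of a cell line was measured on Affymetrix mouse arrays. The deposited values are linear signal intensities per probe set, made by the authors with GCOS, per the submitters' processing notes. Its version, the background step and detection calls are not stated there or in the labels. In both columns the 2% trimmed mean was 500.0, so the authors' values had a common scale. Depth does not apply to arrays. Their number, 1 per group, limits the precision.

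Signals of the 45037 probe sets that are not controls were brought to 1 trimmed mean (factors 1.00 and 1.00). Symbols came from the platform annotation: 34945 probe sets had 1 symbol, 932 several and 9160 none. All 49 member symbols matched the RefSeq gene table by gene identifier, unchanged. The floor was the 50th percentile of signals over both arrays. A gene took its brightest own probe set, and its value was the log2 ratio of estradiol over untreated. Counts used 1.5-fold and 2-fold. With 1 array per group no test was made. Members, lists, levels of signal and motifs were chosen with earlier results of these data known.

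Named were the 10 members highest and the 10 lowest by ratio, the 5 brightest, the 6 with the widest range over probe sets, preset genes (paralogs, stalk, Mdm2-binding, Rps19, Rps14, Rps6, Rpsa), members below the floor and, from other lists, the 2 brightest and those past 1.5-fold. Other genes named, with their extremes, were chosen after their values were seen. The procedure was tested on simulated data. Computation used pandas 2.3.3 and numpy 2.4.6 under Python 3.11.15, loess came from statsmodels 0.14.6, and plots from matplotlib 3.10.9.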

Additional observations from a re-analysis of the deposited data

Results flagged for a closer look

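Signals outside the comparison of genes were noted where a probe set shared between a ribosomal protein and other symbols was higher with estradiol than untreated by more than 2 SD (0.50) of probe sets of 1 gene. This held for 2 of 105 measured shared probe sets. A probe set of Rpl17 read 763 with estradiol and 493 untreated (log2 ratio 0.63). Its other 3 shared probe sets, all bright, had ratios from -0.03 to 0.07. A probe set of Rpl37 read 446 with estradiol and 310 untreated (0.53), while the other 2 shared ones had 0.00 and -0.05. Both are dim, in the range of signal below 1000 where 15 shared probe sets had an SD of 0.31.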

How the results depend on the processing

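No measured ribosomal protein gene was past 2-fold under any of the 12 alternatives, and none past 1.5-fold under 11 of them. With no floor and 16 added to each signal 1 gene was at least 1.5-fold lower, the dim Rpl3l (log2 ratio -0.64), because that setting forms ratios from signals near background. The median over the measured members ran from -0.13 to 0.02, and relative to all genes from -0.04 to 0.03, so its sign is not settled. A common median moved all genes by -0.11, and the members' median to -0.13, which is -0.02 relative to all genes. It left 5 of the 45 members within 0.1 of 0 (3 in the 40S and 2 in the 60S subunit, and 0 of the 12 Diamond-Blackfan genes), but 42 within 0.1 of the median of all genes. The numbers above and below 0 moved with the scaling: 1 and 44 with a common median, 22 and 19 after quantile normalization, 35 and 10 after loess and 7 and 38 with scaling on hybridisation controls. Admitting shared probe sets, an alternative chosen after seeing the data, gave 71 measured genes with 60 below 0 and 70 within 0.1 of 0 and of the median of all genes (44 in the 60S subunit, and 19 Diamond-Blackfan genes). With the median over probe sets 39 of 45 members lay within 0.1 of 0 (19 in the 40S and 20 in the 60S subunit). Without _x_at probe sets 34 of 40 did (9 Diamond-Blackfan genes), and without _s_at ones as well 33 of 40. The counts within 0.1 were added after seeing the data. Of 364 values of 31 named genes, 5 moved by more than 0.14, in 4 genes: Rps3 (0.23 as the median over probe sets), Rpl41 (-0.21 without _x_at probe sets, also without _s_at ones), and with shared probe sets Rpl14 (-0.02) and Rpl39 (-0.03). No paired analysis was possible because each group has 1 array. Probe sets near the floor have ratios limited by signal over background, and the brightest ones lie near the top of the range.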
